A study of Canis lupus familiaris with 62 samples.

Results

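Chromosomes 29, 32 and 36 of the dog are described here through 809 genes, of 30951 in the counts file, in 62 canine meningiomas. A gene was taken when it lay on 1 of these chromosomes, had more than 1 exon row in the file and spanned under 500 kb. This gave 316 genes on chromosome 29, 261 on chromosome 32 and 232 on chromosome 36, which together held 2.53% of all counts. The 3 chromosomes were chosen by the measured values themselves, the lower counts of their genes in tumours of dogs that had surgery than in those of untreated dogs. That difference is therefore described, and adjusted p-values given for it sort members and are not read as a test. The longest gene inside the span limit measured 497934 bases and the shortest outside it 506213 bases. The limit left out 2, 6 and 2 genes with more than 1 exon row on chromosomes 29, 32 and 36. The file names genes by Ensembl identifier on CanFam3.1 and pairs none with a symbol, so 4 members are named, no gene's function can be given, and markers of cell types could not be looked up.

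Meningiomas grow from the arachnoid cells of the membranes around the brain and are treated in dogs by surgery, radiotherapy or drugs alone. All dog autosomes are acrocentric, and they differ in how tightly genes are packed. In mammals, gene-dense regions carry many genes that every cell uses, with short introns, while gene-sparse regions carry more genes with long introns and tissue-restricted expression. A gain or loss of a chromosome in a tumour is known to shift the RNA of many of its genes together.

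Total RNA came from spontaneous tumours archived in paraffin, 1 library per dog. By the treatment labels 27 dogs had none (untreated), 13 had Sx and 9 Sx + RT (SxRT), read as surgery without and with radiotherapy, and 14 of these 22 surgical dogs were labelled lost to follow-up. The remaining dogs had RT alone (3), a steroid, alone (1) or together with anti-epileptics (6), or anti-epileptics only (3). Of the surgical dogs 10 were female and 4 intact, against 14 and 3 of the untreated. The labels give neither the order of sampling and treatment nor a molecular class. They do not say which tissues were biopsies and which were taken after death. The labels also give a survival value, lower for every untreated dog than for any surgical dog. Between these groups survival and surgery cannot be told apart.

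Libraries held between 1967061 and 12063982 counts (median 4190135). Surgical and untreated libraries differed in more than these chromosomes. Total counts averaged 3.95e+06 ± 1.22e+06 (SD, n = 27) in untreated and 5.36e+06 ± 2.07e+06 (SD, n = 22) in surgical libraries. Even numbers made up 91.2% ± 2.71 (SD, n = 27) of the low gene counts (at most 20) of untreated libraries and 86.5% ± 3.46 (SD, n = 22) of those of surgical ones. Counting both mates of a read pair in the same gene makes this even share high. Mitochondrial genes took 14.4% ± 7.91 of untreated and 10.0% ± 4.01 of surgical counts. All 21 samples whose names begin with S were surgical, as was 1 sample whose name begins with N (Sx replicate 1), so this letter and surgery cannot be told apart. In bulk tissue fewer cells of a type and less RNA per cell cannot be told apart either.

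Of the 809 members, 525 passed the filter on low counts and were tested (187 on chromosome 29, 195 on chromosome 32 and 143 on chromosome 36). The other 284 were nearly silent, with a median of 12 counts summed over all libraries, and 69 of them had no count at all. Tested members stood at a lower level in surgical than in untreated tumours by a median of 0.21 on the log2 scale (fitted log2 fold change -0.21, quartiles -0.77 and 0.13). Of the 525, 353 (67.2%) lay below 0. Among 15363 tested multi-exon genes under 500 kb on the other 35 autosomes the median was 0.00 and 50.4% lay below 0. The chromosome medians were -0.23 on chromosome 29, -0.17 on chromosome 32 and -0.22 on chromosome 36. Ordered by this median, the 3 chromosomes stood at places 1, 4 and 2 from the lowest of 38 autosomes for 29, 32 and 36. Chromosome 19, at -0.20, lay between them and chromosome 14, at -0.15, followed. The far end of the order was held by chromosome 20 at 0.14, chromosome 6 at 0.10 and chromosome 24 at 0.09.

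By the edgeR quasi-likelihood test with adjusted p under 0.05, 80 members were called lower and 18 higher. Over all 18370 genes tested 10.4% were called lower and 6.37% higher, and since the contrast chose the chromosomes nothing is read from the count. Chromosome 29 held 29 lower and 7 higher calls, chromosome 32 held 28 and 4, and chromosome 36 held 23 and 7. Lower calls were large in size, with a median log2 fold change of -2.14 and a range from -5.37 to -0.33. The member at -5.37 had no count in the median library of either group. Its highest log2 CPM was 5.26 in untreated and -0.43 in surgical libraries. Of the 80 lower calls, 39 also averaged log2 CPM 1 or more with group medians at least 0.5 apart. The 427 members not called had a median of -0.13, with values from -2.78 to 1.90 on either side of 0. At least a 2-fold lower fitted level was seen for 103 members (19.6%) and at least a 2-fold higher one for 22 (4.19%), against 1991 and 643 of the 15363 genes on the other autosomes. The members' tail was thus longer on the lower side, and on the higher side the shares were 4.19% for both.

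The shift was also visible library by library. The score of a chromosome is the mean over its members averaging log2 CPM 2 or more (counts scaled by library size, on a log2 scale) of the gene's log2 CPM less its mean over all libraries, less the median of the same score over the 38 autosomes. It used 114, 130 and 99 members of chromosomes 29, 32 and 36. On chromosome 29 untreated libraries ran from -0.70 through a median of 0.06 to 0.38, and surgical libraries from -0.49 through -0.11 to 0.21. The groups overlapped, with 19 of 22 surgical libraries under the median of the untreated, and the single lowest library was untreated replicate 23. On chromosome 32 untreated libraries ran from -0.29 through 0.05 to 0.32 and surgical libraries from -0.53 through -0.16 to 0.57. Here both the lowest and the highest of the compared libraries were Sx (replicates 12 and 10), and 17 of 22 surgical libraries lay under the median of the untreated. On chromosome 36 untreated libraries ran from -0.95 through 0.07 to 0.46 and surgical libraries from -0.68 through -0.15 to 0.19, with 18 of 22 below the untreated median. The lowest library there was untreated replicate 21.

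**Figure D1:**
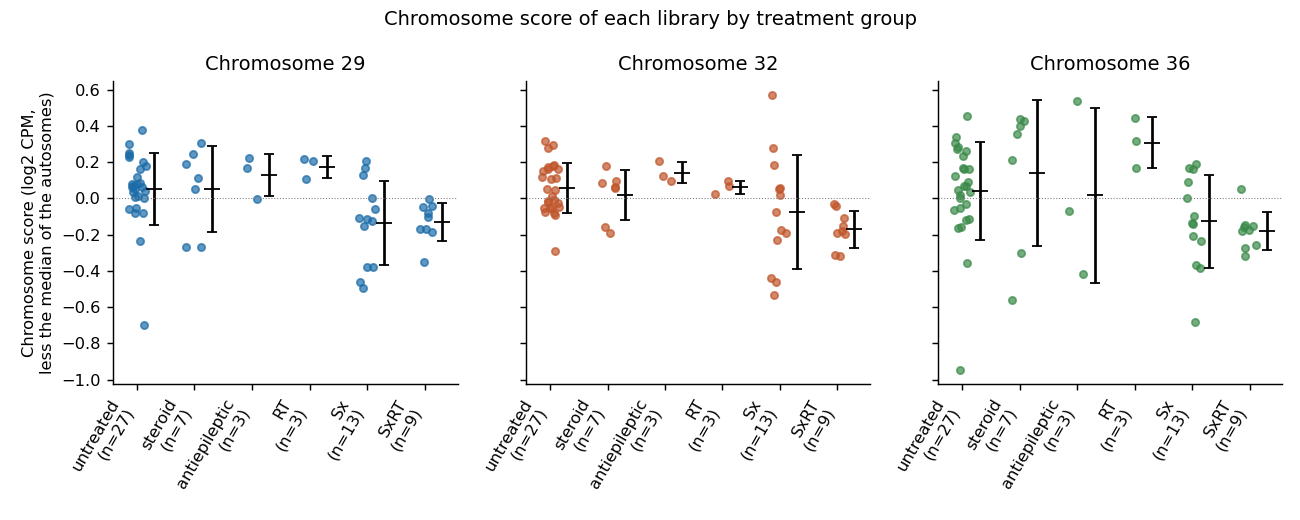
Chromosome score of each library (points, log2 CPM less the autosomal median) by treatment group, with the mean and SD of each group as a bar beside the points. SxRT libraries lie below 0 for 9 of 9 on chromosomes 29 and 32 and 8 of 9 on chromosome 36, and Sx libraries spread more widely, from -0.53 to 0.57 on chromosome 32.

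Surgical minus untreated, the mean scores differed by -0.19 on chromosome 29 (-0.13 ± 0.19, SD, n = 22, against 0.05 ± 0.20, n = 27), by -0.17 on chromosome 32 (-0.11 ± 0.25 against 0.06 ± 0.14) and by -0.19 on chromosome 36 (-0.15 ± 0.21 against 0.04 ± 0.27). On chromosome 32 the difference was larger than the SD between untreated tumours, and on chromosomes 29 and 36 it was smaller. Within sample names numbered 11 to 16 (9 surgical and 18 untreated) the differences were -0.23, -0.15 and -0.26 for chromosomes 29, 32 and 36. Within names numbered 17 to 22 (13 and 9) they were -0.12, -0.20 and -0.06, so chromosome 36 was lower mainly in the earlier numbers. Without the dogs lost to follow-up (8 surgical left) the difference on chromosome 32 went to -0.05. Sx replicate 1, the N-named surgical library, stood above 0 on all 3 chromosomes, at 0.21, 0.18 and 0.19.

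Libraries of the other treatments were not used to choose the chromosomes. On chromosome 29 the RT libraries scored 0.11, 0.22 and 0.20 and the anti-epileptic libraries 0.17, 0.22 and 0.00 (lowest -0.0017). On chromosome 32 they scored 0.03, 0.07 and 0.10, and 0.09, 0.21 and 0.12. On chromosome 36 the RT libraries scored 0.31, 0.44 and 0.17 and the anti-epileptic libraries 0.54, -0.42 and -0.07, the widest spread of any group of 3. Steroid libraries (n = 7) ran from -0.27 through a median of 0.11 to 0.31 on chromosome 29, from -0.19 through 0.06 to 0.18 on chromosome 32 and from -0.56 through 0.36 to 0.44 on chromosome 36. The means of the RT, anti-epileptic and steroid libraries thus lay above the surgical mean on each chromosome. Libraries of each of these groups nevertheless fell within the surgical range on each chromosome. The scores of these groups were not tested. Gene by gene, edgeR called 3 of 525 members higher and 0 lower in steroid than in untreated tumours, all 3 on chromosome 29, against 0.256% of all genes called. At an unadjusted p under 0.05 there were 62 members (11.8%, against 11.0% of all genes), and the median log2 fold change was -0.06 over members and 0.03 over the other autosomes. This comparison shares its untreated libraries with the one that chose the chromosomes.

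Whether radiotherapy beside surgery, or sex, went with these genes was asked in contrasts that the choice did not use. No member was called between SxRT and Sx by edgeR (0 of 525, against 0.0109% of all genes called, smallest adjusted p 0.0971). At an unadjusted p under 0.05 there were 30 members (5.71%), close to the 5.11% of all genes tested. DESeq2 called 1 member lower and 2 higher, against 0.115% and 0.0984% of all genes, and limma voom called 0 (0.0163% of all genes). The median log2 fold change, SxRT minus Sx, was -0.14 over members and -0.04 over the other autosomes, and 56.7%, 71.8% and 63.6% of the members of chromosomes 29, 32 and 36 lay below 0, against 54.3% on the other autosomes. The scores of SxRT and Sx differed by 0.01 on chromosome 29, -0.10 on chromosome 32 and -0.05 on chromosome 36. None passed an exact 2-sided permutation test (p 0.926, 0.390 and 0.580; adjusted p 0.926, 0.779 and 0.826 over 6 tests, 9 against 13 dogs), which does not show that the groups were alike. On chromosome 32, 7 of 9 SxRT libraries lay below the Sx median.

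Between 31 female and 31 male dogs no member was called by edgeR either (0 of 525, against 0.049% of all genes, smallest adjusted p 0.108), and DESeq2 and limma voom called 0 (0.0601% and 0.0327% of all genes). At an unadjusted p under 0.05 there were 57 members (10.9%, against 8.26% of all genes). Female minus male, the scores differed by 0.08, 0.02 and 0.09 on chromosomes 29, 32 and 36 (permutation within treatment groups, p 0.0907, 0.689 and 0.211; adjusted p 0.544, 0.826 and 0.633). Of the female libraries, 12, 10 and 9 of 31 lay below the male median.

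The question whether a few genes or most carried the lower level has a different answer for the direction and for the size. Direction was spread widely. Of the scored members, 72 of 114 on chromosome 29 (63.2%), 76 of 130 on chromosome 32 (58.5%) and 64 of 99 on chromosome 36 (64.6%) differed, surgical minus untreated, by less than the mean difference of the other autosomes' genes. The share of those other genes below their own mean was not computed, and choosing the chromosomes by this contrast favours high shares. In a typical surgical library (the median of 22) 57.3% of the scored members lay below their own untreated median, against 47.5% of scored genes on the other autosomes, and the share was higher among members in 18 of 22 surgical libraries. Size was concentrated. The lowest 10% of scored members, 11, 13 and 10 genes, carried 48.9%, 53.6% and 56.1% of the summed fall below the other autosomes' mean on chromosomes 29, 32 and 36. Removing the lowest 20, 21 and 14 members (17.5%, 16.2% and 14.1%) brought the mean of the rest up to that of the other autosomes. These shares were not computed for other autosomes, so the concentration is not shown to be particular to these chromosomes. Without the 10% of scored members with the largest fold change of either sign, the score differences were -0.07, -0.04 and -0.03. When the 10% were instead those farthest, in either direction, from the other autosomes' mean difference, the rest averaged -0.10, -0.06 and -0.09 relative to that mean.

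**Figure D2:**
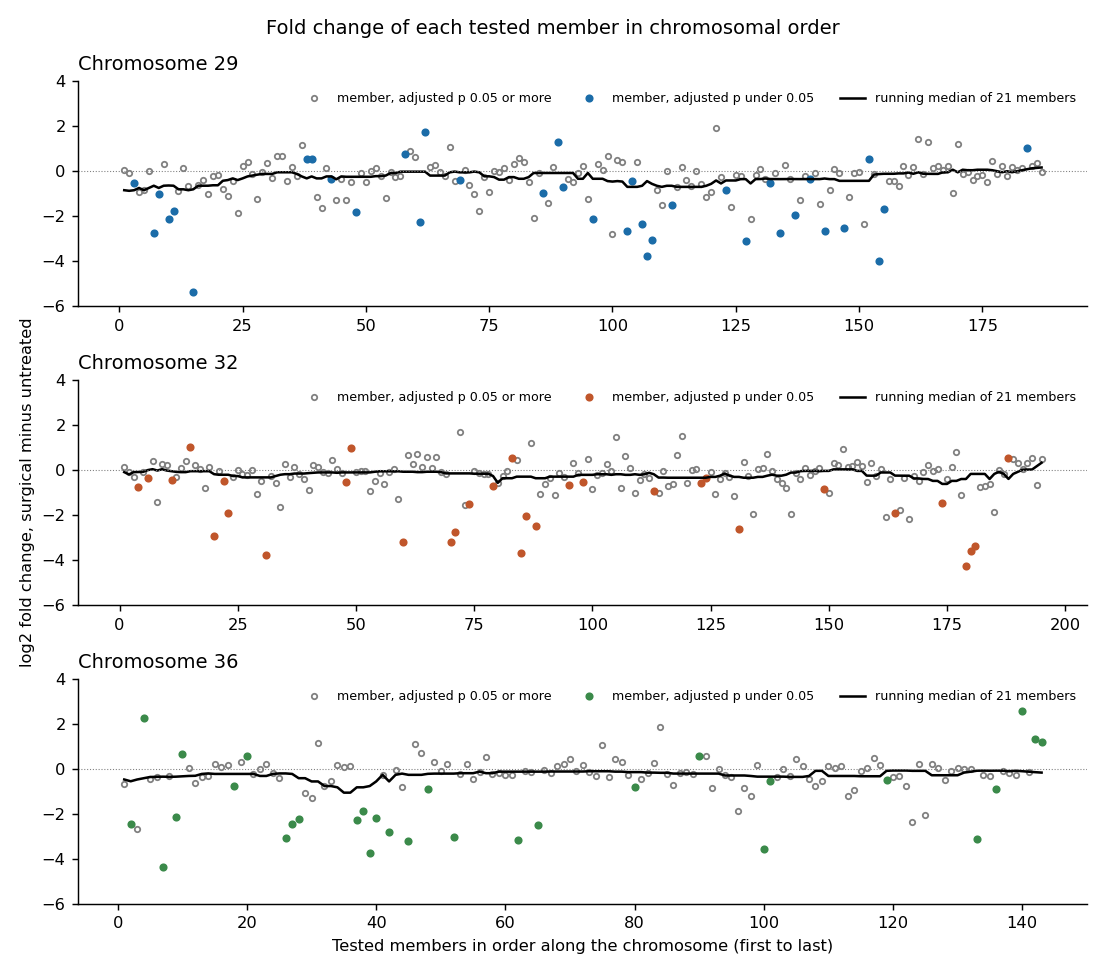
Fitted log2 fold change (surgical minus untreated) of each of the 187, 195 and 143 tested members in order along chromosomes 29, 32 and 36, filled where the adjusted p was under 0.05, with a running median of 21 members as a line. The line runs a little below 0 along most of each chromosome, while filled points far below 0, down to -5.37, are scattered among it.

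The lower members were not gathered in 1 segment. In parts of 10 Mb, 11 of 11 parts with at least 30 tested members had a median below 0, between -0.46 and -0.14, where 113 of 193 such parts of the other autosomes did (lowest -0.47, highest 0.39). The lowest part was chromosome 29 from 20 to 30 Mb, whose 46 tested members had a median of -0.46 with 11 called lower and 1 higher. The first 10 Mb of chromosome 29 (40 members, -0.36), the first 10 Mb of chromosome 36 (36 members, -0.34) and chromosome 32 from 30 Mb on (36 members, -0.32) followed. The part with the most lower calls, chromosome 36 from 10 to 20 Mb, also held the most tested members, with 12 called among 64 (18.8%) and a median of -0.22. The share called lower was highest on chromosome 29 from 20 to 30 Mb (23.9%), against 10.4% of all genes tested. Both exceptions were thinly filled ends. The 7 tested members beyond 40 Mb on chromosome 29 had a median of 0.16 with 1 below 0, and of the 4 beyond 30 Mb on chromosome 36, median 1.24, 3 were called higher.

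The scored members of each chromosome were also divided at their median start. On chromosome 36 the score of the members up to position 16185649 differed by -0.34 between surgical and untreated libraries, and that of the members beyond it by -0.03. Beyond that position, the part from 20 to 30 Mb had a fitted median of -0.29 with 27 of 39 members below 0. The 4 tested members beyond 30 Mb had a mean log2 fold change of 1.22, and how far they raised the score of the second part was not computed. On chromosomes 29 and 32, divided at 22466242 and 19261081, the first and second parts differed by -0.15 and -0.22, and by -0.21 and -0.13. The parts of chromosome 32 varied together within groups, with r 0.69 (rho 0.747, permutation p 8e-05 and 3e-05, adjusted p 0.00024 and 9e-05 over 6 relations, r 0.60 without the 2 farthest libraries) over 27 untreated libraries. Over the 22 surgical libraries they gave r 0.90 (rho 0.839, both permutation p 1e-05, the smallest that 100000 resamples give, adjusted p 6e-05, r 0.84 without the 2 farthest). On chromosome 29 the parts gave r 0.65 in surgical libraries (rho 0.519, permutation p 0.0012 and 0.0139, adjusted p 0.0024 and 0.0277, r 0.53 without the 2 farthest). In untreated libraries they gave r 0.42 (rho 0.130, permutation p 0.0306 and 0.516, adjusted p 0.0459 and 0.62), which rested on the 2 farthest libraries (r 0.16 without them). On chromosome 36 the parts gave r 0.35 in surgical (rho 0.282, permutation p 0.109 and 0.203, adjusted p 0.109 and 0.305, r 0.23 without the 2 farthest) and r 0.39 in untreated libraries (rho 0.074, permutation p 0.0473 and 0.713, adjusted p 0.0567 and 0.713, r -0.01 without the 2 farthest). The 2 parts of chromosome 32 thus went up and down together among dogs, which was not shown for chromosome 36. Correlations between the parts of other autosomes were not computed, so this is not shown to be particular to chromosome 32.

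Expression level went with the size of the difference. All tested autosomal genes of this kind were divided into 4 bins of equal size. In the bin of lowest expression (mean log2 CPM up to 1.35), 157 members had a median log2 fold change of -0.59, against -0.32 for 3815 genes of the other autosomes. In the next bin (up to 3.67) 120 members stood at -0.46 against -0.05, the widest gap of the 4 bins. There 25 members (20.8%) were called lower and 1 (0.833%) higher, against 11.5% and 3.79% of the other autosomes' genes. In the third (up to 5.45) 120 members stood at -0.11 against 0.05, and in the highest 128 members at -0.04 against 0.07. Members in the upper bins were thus closer to 0. Of the 80 lower calls 50 had a mean level below the autosomal median, as had 225 of the 427 members not called and 2 of the 18 higher calls. A gene that is lower in surgical libraries also has a lower mean, so level and fold change are not independent. With a minimum of 4 in place of 2 for the mean log2 CPM, the score differences were -0.03, -0.17 and -0.10 on chromosomes 29, 32 and 36, against -0.19, -0.17 and -0.19. The fitted medians of chromosome 32 alone were nevertheless smaller in size at higher levels, at -0.60, -0.32, -0.11 and -0.05 over the 4 bins.

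**Figure D3:**
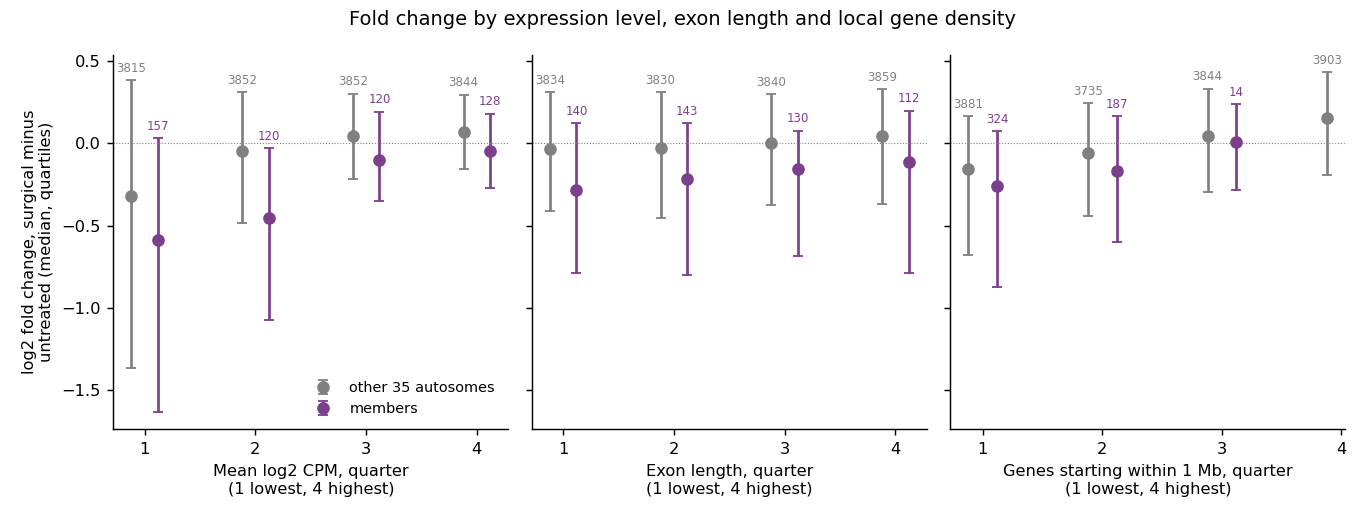
Median log2 fold change with its quartiles (surgical minus untreated) for members and for the genes of the other 35 autosomes, in 4 bins of mean log2 CPM, of exon length and of local gene density, with the number of genes above each line. Members lie below the other genes in each bin they fill, farthest in the second bin of expression (-0.46 against -0.05), and no member lies in the densest bin.

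Exon length, the summed length of a gene's merged exons, went with it less. Members in the bin of shortest exons (up to 1254 bases, 140 members) had a median of -0.28, followed by -0.22, -0.16 and, for the longest (from 3189 bases, 112 members), -0.11. The other autosomes' genes ran the same way, from -0.03 to 0.04, so members lay below them in all 4 bins. Median exon length was 1943 bases for members and 2032 for the other genes. The share of members called lower ran the other way, at 14.3%, 12.6%, 15.4% and 19.6% from the shortest to the longest bin (20, 18, 20 and 22 members). On the other autosomes it was 7.54% in the shortest bin and at most 11.4% in the others. Chromosome 36 held the longest member, with 88447 bases of exon. When each member was set against the median of the other autosomes' genes in the same bin of exon length and of expression, the members' median difference was -0.19, close to the -0.21 without such cells.

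The 3 chromosomes share a low gene density, which the choice did not use. The file holds 9.64, 8.96 and 9.28 genes per Mb on chromosomes 29, 32 and 36, places 5, 3 and 4 from the lowest of 38 autosomes. Members also span more genome, with a median of 43293 bases against 23633. A tested member had a median of 22 genes of the file starting within 1 Mb of its middle, against 35 for the other autosomes' genes, and 324 of the 525 (61.7%) fell in the sparsest bin. Across the 38 autosomes the median log2 fold change went with gene density (Spearman rho 0.74, Pearson r 0.72) and against median gene span (rho -0.72). It went little with median exon length (rho 0.12) or median level (rho 0.20). These are descriptions over chromosomes that share all libraries. In the sparsest bin members had a median of -0.26 and the other autosomes' genes -0.16. Set against the other autosomes' genes of the same bin of local density and of expression, the members' median difference was -0.06, with 292 of 525 (55.6%) below 0. Genes of sparse regions elsewhere were thus lower in surgical libraries too, and the members' distance from other genes was smaller at matched density and level.

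**Figure D4:**
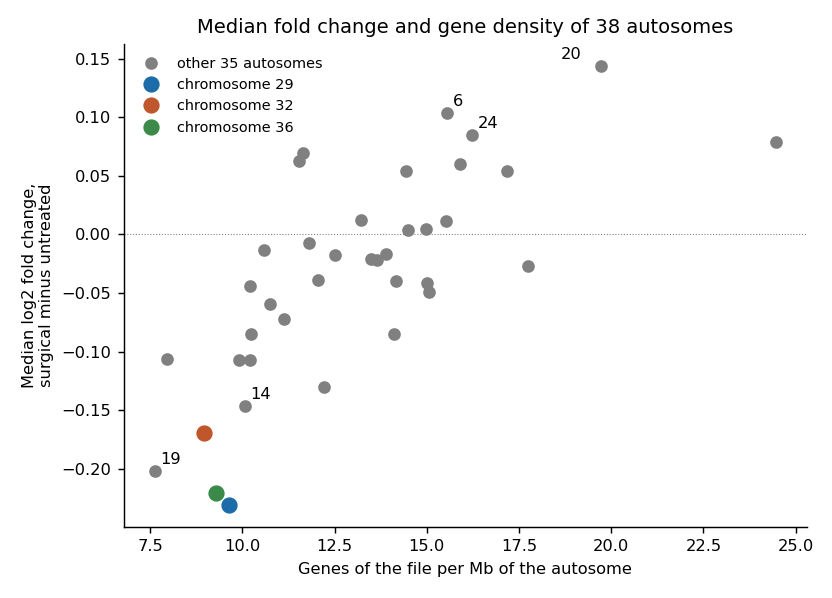
Median log2 fold change (surgical minus untreated) of the tested multi-exon genes of each autosome against the number of genes of the file per Mb of that autosome. Chromosomes 29, 32 and 36 sit at the sparse and low corner near chromosome 19, and gene-dense chromosome 20 has the highest median, 0.14.

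Some pairs of the 3 chromosomes had scores that varied together among dogs. Over 22 surgical libraries, Sx and SxRT pooled, chromosomes 29 and 36 gave r 0.80 (rho 0.659, permutation p 1e-05, the smallest that 100000 resamples give, and 0.00103, adjusted p 6e-05 and 0.00504 over 6 relations, r 0.72 without the 2 farthest). Chromosomes 32 and 36 gave r 0.53 (rho 0.640, permutation p 0.0124 and 0.00168, adjusted p 0.0248 and 0.00504, r 0.73 without the 2 farthest). Chromosomes 29 and 32 gave r 0.53 (rho 0.479, permutation p 0.0118 and 0.0261, adjusted p 0.0248 and 0.0313, r 0.37 without the 2 farthest). Among all 703 pairs of autosomes in surgical libraries the median r was -0.01 and the 95th percentile 0.531, so the pair 29 and 36 lay above it and the other 2 pairs (0.529 and 0.527) just under it. Over 27 untreated libraries chromosomes 29 and 32 gave r 0.46 (rho 0.462, permutation p 0.0178 and 0.0168, adjusted p 0.0267 and 0.0252, r 0.44 without the 2 farthest). Chromosomes 29 and 36 gave r 0.35 (rho 0.535, permutation p 0.0712 and 0.00459, adjusted p 0.0855 and 0.00918, r 0.42 without the 2 farthest), and chromosomes 32 and 36 gave r 0.06 (rho 0.158, permutation p 0.768 and 0.429, adjusted p 0.768 and 0.429, r 0.01 without the 2 farthest). All 3 untreated values lay below the 95th percentile of the 703 pairs in those libraries, 0.517. Whether a correlation differed between the groups was not tested.

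**Figure D5:**
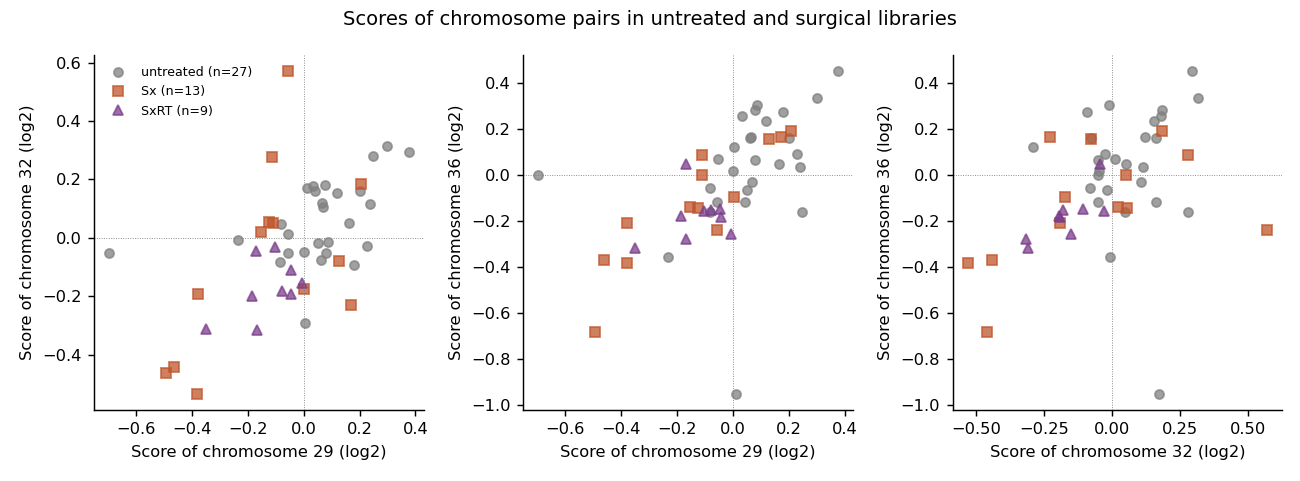
Scores of each pair of the 3 chromosomes in untreated (circles), Sx (squares) and SxRT (triangles) libraries, in log2 units. Surgical libraries line up along the diagonal for chromosomes 29 and 36 (r 0.80), and untreated libraries show no such line for chromosomes 32 and 36 (r 0.06).

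Library measures moved with some of these scores within groups, over 24 relations. The first principal component, computed without any gene of the 3 chromosomes, averaged 14.2 ± 50.1 (SD, n = 27) over untreated libraries and -43.8 ± 24.3 (SD, n = 22) over surgical ones. Within the untreated libraries it went with the score of chromosome 36 (r 0.65, rho 0.751, permutation p 0.00012 and 2e-05, adjusted p 0.00288 and 0.00048, r 0.63 without the 2 farthest). It also went with that of chromosome 29 (r 0.55, rho 0.674, permutation p 0.00216 and 0.00013, adjusted p 0.023 and 0.00156, r 0.59 without the 2 farthest), but not detectably with that of chromosome 32 (r 0.04, rho -0.021, permutation p 0.859 and 0.918, adjusted p 0.872 and 0.958). Within the surgical libraries the total count went against the score of chromosome 32 (r -0.60, rho -0.694, permutation p 0.00287 and 0.00049, adjusted p 0.023 and 0.00392, r -0.62 without the 2 farthest). No relation with the even share or the mitochondrial share passed. With the even share as a covariate the members' median log2 fold change stayed at -0.21 while calls went to 20 lower and 5 higher (2.58% and 1.42% of all genes), and with the first component the median went to -0.12 and calls to 3 lower and 5 higher (0.740% and 0.827%). No fit held the total count, which was higher on average in surgical libraries, as a covariate. The part of these measures in the members' lower level was not tested further.

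Members with large changes are shown by the 2 lowest and 2 highest under the rule for named genes, which 39 lower and 11 higher members met. They are extremes of the contrast that chose the chromosomes, so their values illustrate the difference and are no separate support for it. ENSCAFG00000031120, on chromosome 36 from 3358125 to 3363129 with 1017 bases of exon, stood at log2 CPM from -1.16 (no count) through a median of 4.04 to 6.82 in untreated libraries. In surgical libraries its lowest value and its median were both -1.16 and its highest 3.65, with no count in 16 of 22. All 22 surgical libraries lay below the untreated median, and the fitted log2 fold change was -4.38 (SE 0.862). It was -5.83 without Sx replicate 1, and over 13 alternative fits it ran from -6.29 (names 11 to 16) to -2.01 (first principal component as covariate). The RT libraries stood at -1.16, 4.75 and 5.87 and the anti-epileptic libraries at 5.78, 1.85 and 2.56. Of these 6 libraries 5 stood above the surgical median, but that median is the value of no count, so any library with a count stands above it.

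ENSCAFG00000012173, on chromosome 32 from 34179247 to 34233116 with 3528 bases of exon, ran from -1.16 through 6.56 to 10.6 in untreated and from 0.40 through 1.73 to 6.38 in surgical libraries. All 22 surgical libraries again lay below the untreated median (fitted log2 fold change -4.27, SE 0.703), although the ranges overlapped. It was -5.10 without Sx replicate 1, and ran from -5.59 to -1.99 under the same 2 settings. Its span, introns included, overlaps another gene of the file. Whether the 2 genes share exon bases was not examined, and without strand reads on shared bases could not be told apart. Of the 80 lower members 26 overlap another gene in span, as do 116 of the 427 members not called. Without all overlapping members the score differences were -0.18, -0.09 and -0.11 on chromosomes 29, 32 and 36.

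The 2 highest members under the rule lay on chromosomes 36 and 29. ENSCAFG00000009209, on chromosome 36 from 2547421 to 2552780, with 2072 bases of exon, ran from 1.62 through 3.63 to 5.21 in untreated and from 2.35 through 5.39 to 8.36 in surgical libraries (fitted log2 fold change 2.25, SE 0.353), and 18 of 22 surgical libraries lay above the untreated median. Within names numbered 11 to 16 its difference was 0.14 and did not pass (edgeR adjusted p 0.928), and within names 17 to 22 it was 3.49. The 3 RT libraries stood at 5.21, 4.96 and 5.05, all above that median too. It lies within 1 Mb of ENSCAFG00000031120, which moved the other way. ENSCAFG00000007344, on chromosome 29 from 16157821 to 16192808, ran from 2.92 through 3.93 to 7.52 in untreated and from 2.20 through 5.74 to 8.67 in surgical libraries (1.74, SE 0.395), above the untreated median in 14 of 22. Its SxRT median was 7.68 and its Sx median 4.45, and the fitted difference between them, 1.77 (SE 0.589), did not pass (edgeR adjusted p 0.493). Within names numbered 11 to 16 its surgical difference was -0.08, and within names 17 to 22 it was 2.02.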

How the data were processed

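The authors deposited 1 table of raw counts. According to its header, and so per the file headers, they came from featureCounts 2.0.4 with the Ensembl release 100 annotation of CanFam3.1, restricted to primary alignments and with no strand option. Both reads of a pair were counted, so most nonzero values were even (61.0% to 88.9% per library) and precision is lower than totals imply. STAR and DESeq2 are named in the submitters' processing notes. The reference table at hand (UU_Cfam_GSD_1.0) matched 0 identifiers, so marker and HOXD lists were not analysed and no sequence is shown.

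Counts were filtered with filterByExpr (18370 genes), scaled by TMM (factors 0.556 to 1.24) and tested with edgeR 4.0.16 (quasi-likelihood, R 4.3.3). The model held 6 treatment groups plus sex and neuter status over all 62 libraries, p-values adjusted over all genes by Benjamini-Hochberg. Surgical is the mean of Sx and SxRT. Log2 CPM used a prior count of 2. The SE is the fold change over the root of F. Alternatives used DESeq2 1.42.0 and limma 3.58.1. Scores were tested by exact permutation or 100000 resamples (Python 3.11.15, numpy 2.4.6, scipy 1.17.1). The fits were tested on simulated counts. The rule for named genes took members averaging log2 CPM 1 or more, adjusted p under 0.05 and group medians at least 0.5 apart, the 2 largest changes per direction. Members, lists and tests were chosen with earlier results of these data known. Gene density, spans, matched bins and chromosome parts were added after the file was seen. No 2 libraries were alike (closest of 1891 pairs, chi-square 11.8 per gene).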

Additional observations from a re-analysis of the deposited data

Results flagged for a closer look

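In groups of 4 to 10 dogs, 1 library set apart from its group was looked for among the 3 scores and the 4 named members (14 groups, of which chance marks about 1 in 20). SxRT replicate 4 had a score of 0.0513 on chromosome 36, above 0 where the other 8 SxRT libraries lay at -0.14 or below. SxRT replicate 5 had a log2 CPM of 5.05 for ENSCAFG00000012173, where the next SxRT library stood at 2.23.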

How the results depend on the processing

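The members' median log2 fold change between surgical and untreated tumours stayed below 0 in the 13 alternative fits, between -0.33 and -0.12, and below that of the other autosomes in each. The count of lower members stayed within 1.5 times of 80 under another scaling, filter, tool or set of covariates from the labels. Calls fell from 80 lower and 18 higher to 20 and 5 with the even share and to 3 and 5 with the first component. Within names 11 to 16 they fell to 0 and 0 (0 and 0 over all genes too). Within names 17 to 22 they fell to 0 and 1 (34 and 37 over all genes). Without dogs lost to follow-up they fell to 0 and 0 (0 and 2 over all genes). The last 3 of these settings had fewer dogs, and the cause was not tested. Between SxRT and Sx, DESeq2 called 1 lower and 2 higher members, the first component as covariate gave 2 higher and leaving out sex and neuter status 1 higher, from 0. Between the sexes, no filter on low counts gave 2 lower and 7 higher members, from 0. Apart from DESeq2, the share over all genes is not given for these SxRT and sex settings, and nothing is read from the counts. The SxRT minus Sx score of chromosome 29, 0.01, turned to -0.0120 with a median over genes, -0.00538 with a minimum level of 0 and -0.00111 without overlapping members. The female minus male score of chromosome 32, 0.02, turned to -0.00699 with a median over genes. Leaving out 1 library at a time, SxRT minus Sx ran from -0.0220 to 0.0362 on chromosome 29 (lowest without Sx replicate 8, and below 0 also without Sx replicate 7, -0.0125, 11, -0.0195, or 12, -0.0126, and without SxRT replicate 2, -0.00268, 3, -0.00274, or 6, -0.00752), from -0.14 to -0.044 on chromosome 32 and from -0.098 to -0.025 on chromosome 36. Surgical minus untreated ran from -0.21 to -0.17, from -0.20 to -0.15 and from -0.23 to -0.16. ENSCAFG00000007344 turned to -0.0764 within names 11 to 16. ENSCAFG00000031120 lost its call in 4 of 13 fits, ENSCAFG00000012173 in 3, ENSCAFG00000009209 in 2 and ENSCAFG00000007344 in 4. These genes were picked by the same contrast, so calls that were kept are no separate support for the difference. No paired analysis was possible because each dog gave 1 library under 1 treatment label. Low counts limit the bin of lowest expression most.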
